A study of Mus musculus with 9 samples.

Results

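The genes described here are 10 cytokine and chemokine genes, Il10, Il6, Tnf, Lta, Ltb, Ebi3, Tgfb1, Ccl3, Ccl4 and Ifng, taken by gene symbol from the 24346 genes listed for each library. All 10 were present in the files. RNA-seq was performed on sorted splenic B cells of wild-type C57BL6 mice in 3 groups with 3 libraries each. Young FO B cells are follicular B cells of mice at 8 weeks of age, aged FO B cells are the same subset at 50 weeks, and the age-associated B cells (ABCs) also come from mice at 50 weeks. The labels name no transgene, altered allele or treatment in any group. The gates included B220 high, CD43-, CD23+ and CD21 low for FO B cells, and B220 high, CD43-, CD23-, CD21 low, CD11b+ and CD11c+ for ABCs. The study counts 3 mice per group, whereas the labels do not say which libraries came from which animals, so that p-values measure the spread between libraries. ABCs of young mice were not analysed here, and the 2 cell subsets were therefore compared at 50 weeks only.

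B cells act on their neighbours not only through antibody but also through secreted proteins. Lymphotoxin and TNF maintain follicles and the stromal cells of the spleen, IL-6 and IFN-gamma act on T cells and on germinal centers, CCL3 and CCL4 attract other leukocytes, and IL-10, TGF-beta 1 and the EBI3-containing cytokines are known for restraining immune responses. ABCs are a T-bet-expressing B cell subset that accumulates with age and in autoimmune disease, and they are known as a source of several cytokines after stimulation. These libraries hold the transcripts of sorted cells, for which no stimulation is described, and secreted protein was not analysed here.

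The values are FPKM, which divides the fragments of a gene by its transcript length and by the mapped fragments of the library, so that levels can be compared between genes as well as between libraries. The smallest steps between low FPKM values correspond to 1 read, from which approximately 8070000 to 9820000 mapped reads per library and the number of reads behind a low gene were derived. Intervals on reads cover counting error only. Between 10032 and 10445 genes reached 1 FPKM. The CD11b gene Itgam and the CD11c gene Itgax were at 45.0 to 65.7 FPKM in ABCs and under 1 FPKM in aged FO B cells. Spn, which encodes CD43, was at 54.1 to 86.7 FPKM in ABCs against 2.75 to 3.32 FPKM in aged FO B cells although both subsets were gated as CD43-, and Cr2, which encodes CD21, at 0.745 to 8.39 FPKM against 127 to 166 FPKM although both were gated as CD21 low. Cd79a, which encodes a chain of the B cell receptor complex, was at 3252, 3562 and 2462 FPKM in ABC libraries 1 to 3 and 2991 to 3317 FPKM in aged FO B cells. Of 8 tested B lineage genes, 2 were higher in ABCs, Cd22 and Blk, 2 lower, Ebf1 and Pax5, and 4 not called (limma FDR under 0.05). The calls of Ebf1 and Pax5 were lost after scaling to the upper quartile (limma FDR = 0.0838 and 0.125). Fcer2a, which encodes CD23, was at 4.15, 6.95 and 0.463 FPKM in ABC libraries 1 to 3 against 697 to 728 FPKM in aged FO B cells.

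In ABCs against aged FO B cells, 4 of the 7 tested members were lower, Ltb, Tnf, Lta and Tgfb1, as were 16.5% of all tested genes. The calls of Lta and Tgfb1 were lost with no filter and in most fits that left out a library. Ifng, which FO B cells hardly express and which entered the test only because of its level in ABCs, was higher. The mean FPKM was 3.26 times lower for Ltb, 2.07 times lower for Tnf, 1.68 times lower for Lta and 1.48 times lower for Tgfb1. Ebi3 and Ccl4 were tested and not called, and Il10, Il6 and Ccl3 stayed under the filter, which required an average of 1 FPKM or more in the 6 libraries. Between aged and young FO B cells, no member was called.

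Differences were tested with limma on log2(FPKM + 1), and a gene was called at a Benjamini-Hochberg FDR under 0.05 over all genes tested. Of the 10 members, 7 were tested in ABCs against aged FO B cells, and 5 of them were called. The 5 include Ifng, which passed the filter only through the ABCs and so had to differ. Of the 6 other tested members, 4 were called. Among all 10412 genes tested, 35.9% were called, 19.4% as higher and 16.5% as lower, so that a call was common in this comparison. The median log2 difference was -0.50 over the 7 tested members and -0.01 over all tested genes. When libraries were scaled to their upper quartile, the median of all genes moved to 0.15 and the split of calls moved from 2020 higher and 1719 lower to 2447 higher and 603 lower, whereas each of the 7 tested members kept its direction under every scaling. At the stricter thresholds of an absolute log2 difference above 2.3 and an FDR under 0.01, which 1.92% of the tested genes passed, no member was called.

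**Figure D1:**
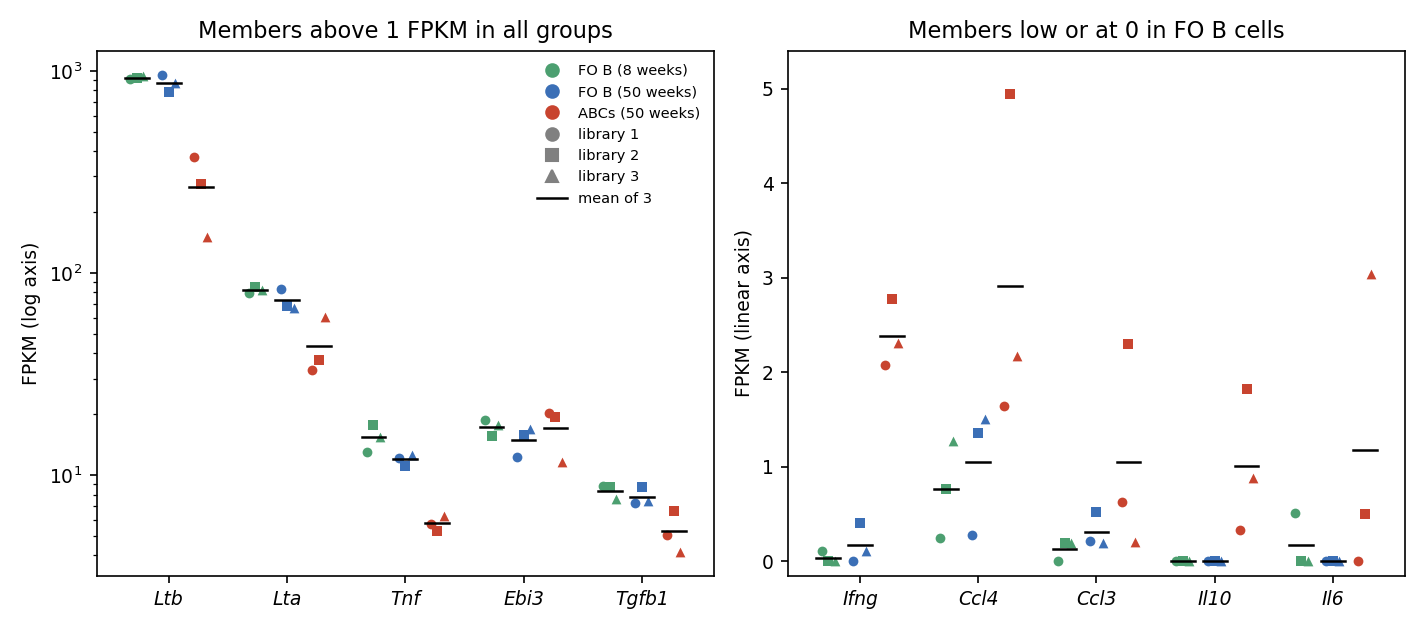
FPKM of the 10 members in each of the 9 libraries, on a log axis for the 5 members above 1 FPKM throughout (left) and on a linear axis for the other 5 (right). Colours are the 3 groups, symbols the library numbers and bars the means of 3 libraries. Ltb and Tnf of ABCs lie below all FO B libraries, whereas Il10 is above 0 in the 3 ABC libraries only.

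Ltb, Tnf and Lta encode the membrane-anchoring lymphotoxin beta chain, TNF and lymphotoxin alpha, 3 members of the TNF superfamily that lie side by side. On GRCm38 (mm10), annotated by GENCODE M21, they occupy 10913 bases of chromosome 17. Ltb spans 35194439 to 35196320 on the plus strand, Tnf spans 35199381 to 35202007 on the minus strand and Lta spans 35203165 to 35205351 on the minus strand, and all are protein-coding. Between the genes lie 3060 bases from Ltb to Tnf and 1157 bases from Tnf to Lta. Because the 3 neighbours moved in the same direction, the sequences before their starts are shown, from the RefSeq promoter table of GRCm38.p6, 5' to 3' in the direction of each gene, together with that of Ifng, which moved in the opposite direction. Capitals mark a match to the kappaB motif GGGNNNTTCC on either strand.

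Ltb, chr17:35194257-35194438, plus strand: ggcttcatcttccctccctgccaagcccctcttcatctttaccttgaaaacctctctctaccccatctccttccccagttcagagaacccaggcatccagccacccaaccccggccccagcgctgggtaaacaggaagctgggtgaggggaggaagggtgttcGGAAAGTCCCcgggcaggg
Tnf, chr17:35202008-35202257, minus strand: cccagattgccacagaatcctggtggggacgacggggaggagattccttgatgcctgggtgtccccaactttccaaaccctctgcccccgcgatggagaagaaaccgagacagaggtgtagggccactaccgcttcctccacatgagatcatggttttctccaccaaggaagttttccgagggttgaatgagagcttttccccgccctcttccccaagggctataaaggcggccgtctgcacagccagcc
Lta, chr17:35205352-35205601, minus strand: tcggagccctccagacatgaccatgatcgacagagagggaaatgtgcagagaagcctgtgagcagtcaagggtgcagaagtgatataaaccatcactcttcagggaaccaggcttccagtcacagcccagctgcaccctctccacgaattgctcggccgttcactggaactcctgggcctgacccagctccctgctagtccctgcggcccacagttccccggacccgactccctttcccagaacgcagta
Ifng, chr10:118440796-118441045, plus strand: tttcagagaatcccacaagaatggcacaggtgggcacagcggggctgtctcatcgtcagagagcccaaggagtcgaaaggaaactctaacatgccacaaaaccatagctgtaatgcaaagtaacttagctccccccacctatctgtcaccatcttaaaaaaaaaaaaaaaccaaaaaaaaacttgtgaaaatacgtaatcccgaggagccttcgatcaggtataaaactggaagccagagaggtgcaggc

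The table held windows of 250 bases before to 50 bases after the start for 8 of the 10 members, all but Il10 and Ccl4, and for Ltb the bases that GENCODE counts to the gene are not shown. Among these 3 neighbours, only the window of Ltb held a match to the 5 motifs searched on both strands, the kappaB match on the minus strand at bases -87 to -78 from the RefSeq start. The window of Il6 held a kappaB match at bases -44 to -35 and a match to the AP-1 motif TGANTCA at bases -249 to -243. The windows of Tnf, Lta, Ebi3, Tgfb1, Ccl3 and Ifng held none of the 5 motifs in these letters. Over all 32851 windows of the table, 5.56% held the kappaB motif, 7.81% the AP-1 motif, 1.79% the CRE motif TGACGTCA, 3.98% the T-box motif TCACACC and 3.44% the ISRE-type motif GAAANNGAAA, none of which overlapped another in the members' windows. A match of letters is a description and not a measured binding site.

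Ltb, whose product anchors lymphotoxin alpha to the cell surface, was the highest of the members in every group. It was at 913, 916 and 941 FPKM in young FO B cells, 957, 787 and 868 FPKM in aged FO B cells, and 376, 274 and 150 FPKM in ABCs. The ABC libraries were all lower than the lowest FO B library, and they differed more among themselves than the FO B libraries did. Among genes with at least 1 FPKM, Ltb ranked above 98.8% to 99.0% in FO B cells and above 92.8% to 97.3% in ABCs. The log2 difference between ABCs and aged FO B cells was -1.80 (standard error 0.30, limma FDR = 0.00374), and it lay between -2.09 and -1.43 when each library was left out in turn. In bulk RNA, fewer cells with a transcript and less transcript per cell cannot be told apart.

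Lta, which encodes the secreted lymphotoxin chain that also pairs with the product of Ltb, was at 79.1, 84.8 and 82.3 FPKM in young FO B cells and 83.2, 68.7 and 67.3 FPKM in aged FO B cells. In ABCs it was at 33.1, 37.1 and 60.5 FPKM. All 3 ABC libraries were below the FO B libraries, with library 3 close to them. The log2 difference was -0.78 (standard error 0.21, limma FDR = 0.0279, from 0.000451 to 0.0976 over its alternatives). This call was lost without any one library other than ABC library 3, and with no filter on low values. Without ABC library 3 the log2 difference was -1.03 and the FDR 0.000451.

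Tnf, which encodes the inflammatory cytokine TNF, was at 13, 17.7 and 15.5 FPKM in young FO B cells, 12.2, 11.1 and 12.6 FPKM in aged FO B cells and 5.75, 5.28 and 6.29 FPKM in ABCs. The ABC libraries lay close together and below every FO B library. Behind these values were 462 reads in the 3 aged FO B libraries and 212 reads in the 3 ABC libraries. The log2 difference was -0.94 (standard error 0.11, limma FDR = 0.000733), and the FDR stayed between 0.000224 and 0.00578 over its alternatives. Tnf was the member of the 3 with the smallest spread between ABC libraries.

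Within the cluster, the ABC libraries differed in how far each gene lay below the FO B libraries. The ratio of Ltb to Lta FPKM was 11.5, 10.8 and 11.4 in young FO B cells, 11.5, 11.4 and 12.9 in aged FO B cells and 11.4, 7.38 and 2.48 in ABCs. ABC library 1 kept the ratio of the FO B libraries, whereas library 3 combined the lowest Ltb with the highest Lta of the ABCs. The mean ratio was 11.9 ± 0.814 (SD, n = 3) in aged FO B cells and 7.07 ± 4.45 (SD, n = 3) in ABCs, with an exact two-sided permutation p of 0.1, the smallest that 3 libraries against 3 can give. The ratio of Lta to Tnf overlapped between these groups, at 5.36 to 6.82 in aged FO B cells and 5.76 to 9.62 in ABCs (exact two-sided permutation p = 0.4). That of Ltb to Tnf was 78.5, 71 and 69.1 in aged FO B cells and 65.4, 51.9 and 23.8 in ABCs (exact two-sided permutation p = 0.1). In young FO B cells it was 70.4, 51.8 and 60.8, which overlapped with the ABCs.

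**Figure D2:**
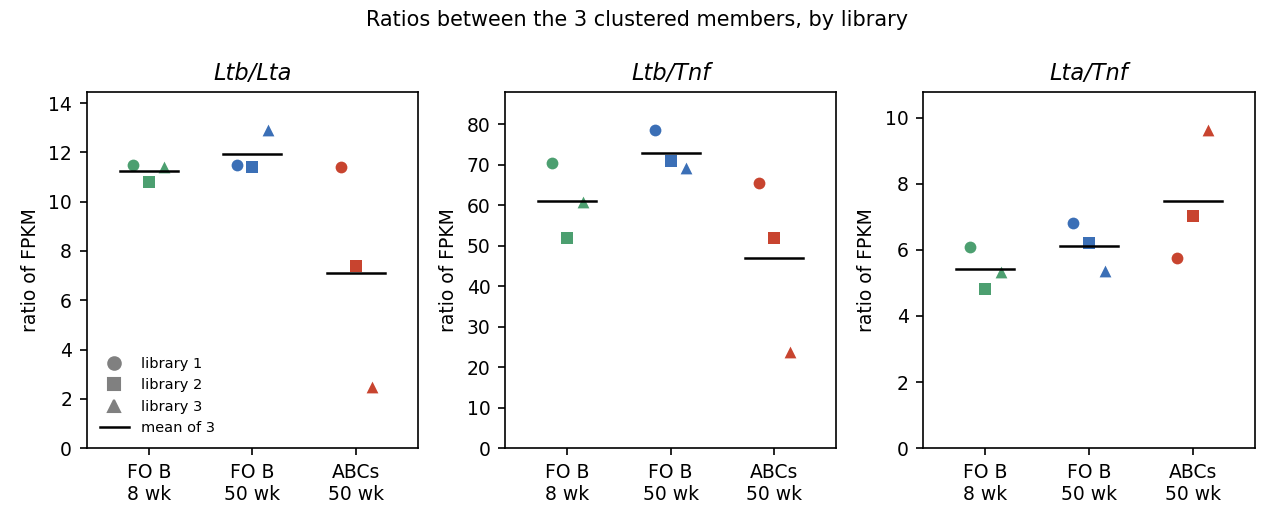
Ratios of FPKM between Ltb, Lta and Tnf in each library, with linear axes that start at 0. Colours and positions are the 3 groups, symbols the library numbers and bars the means of 3 libraries. The Ltb to Lta ratio lies between 10.8 and 12.9 in the FO B libraries and between 2.48 and 11.4 in the ABC libraries.

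The surrounding genes did not share one direction. Within 100000 bases of the cluster, 13 other genes were tested, of which 2 were higher in ABCs, 3 were lower and 8 were not called, with a median log2 difference of 0.00. Lst1, a leukocyte-specific gene next to Ltb, was 0.83 higher on the log2 scale (limma FDR = 0.00471), and the MHC class I gene H2-D1 was 0.52 higher (limma FDR = 0.00222). The lower genes were Gpank1, Prrc2a and Ddx39b, at -0.32, -0.44 and -0.33. These 5 genes were named after their values were seen.

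Of the members with regulatory products, Tgfb1 and Ebi3 were at middle levels. Tgfb1, which encodes TGF-beta 1, was at 8.78, 8.76 and 7.57 FPKM in young FO B cells, 7.25, 8.75 and 7.40 FPKM in aged FO B cells and 5.05, 6.62 and 4.17 FPKM in ABCs. The ABC libraries were below all FO B libraries, although the highest of them came near. The log2 difference of -0.50 passed the threshold narrowly (standard error 0.16, limma FDR = 0.0485, from 0.0179 to 0.261 over its alternatives). Tgfb1 was no longer called without any one library other than ABC library 2, with no filter, with a filter of 5 FPKM or after scaling to the upper quartile.

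Ebi3, which encodes the subunit shared by IL-27 and IL-35, was at 18.7, 15.6 and 17.7 FPKM in young FO B cells, 12.3, 15.7 and 16.9 FPKM in aged FO B cells and 20.3, 19.3 and 11.6 FPKM in ABCs. ABC libraries 1 and 2 were the highest of the 9 and library 3 the lowest. The log2 difference was 0.15 with a 95% interval from -0.36 to 0.66 (limma FDR = 0.611), and 0.39 without ABC library 3 (limma FDR = 0.0613, with 0.0613 to 0.97 over its alternatives). Its partners differed in level. Il12a, which encodes the p35 chain of IL-35 and IL-12, fell from 41.1, 49.5 and 29.3 FPKM in aged FO B cells to 10.6, 12.8 and 9.79 FPKM in ABCs (log2 difference -1.74, limma FDR = 0.00064). Il27, which encodes the p28 chain of IL-27, was listed at 0 in these 6 libraries except at 1.23 FPKM in ABC library 3.

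The other 5 members were low in FO B cells, and their levels rest on few reads. Ifng, which encodes interferon gamma, was at 0.113, 0 and 0 FPKM in young FO B cells, 0, 0.407 and 0.113 FPKM in aged FO B cells and 2.08, 2.77 and 2.31 FPKM in ABCs. All ABC libraries were well above all FO B libraries. There were 61 reads in the 3 ABC libraries and 5 in the 3 aged FO B libraries, a depth-corrected ratio of 12.9 with a 95% counting interval from 5.22 to 41.0. The log2 difference was 1.54 (standard error 0.20, limma FDR = 0.0012). Ifng passed the filter only through the ABCs, in which it is high, and for this reason had to differ if it was tested at all.

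Il10, which encodes the anti-inflammatory cytokine IL-10, was listed at 0 in all 6 FO B libraries and at 0.334, 1.82 and 0.885 FPKM in ABC libraries 1 to 3. These values stand for 3, 18 and 8 reads. Set against a floor of 3 reads over the 3 aged FO B libraries, the 29 reads of ABCs were 10.2-fold higher after correction for depth. This value leaves out the counting error of the 29 reads. Il10 was under the filter. In a fit with no filter, in which 18.5% of 18877 genes were called, its log2 difference was 0.94 (standard error 0.25, limma FDR = 0.0483), a value that depends on the pseudocount because the FO B libraries are at 0.

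Il6, which encodes the inflammatory cytokine IL-6, was at 0.515, 0 and 0 FPKM in young FO B cells, at 0 in the 3 aged FO B libraries and at 0, 0.505 and 3.04 FPKM in ABCs. ABC library 3 held nearly all of its signal and ABC library 1 had none, so that the groups overlap. At the shortest annotated transcript, of 651 bases, these values stand for 0, 2 and 11 reads, and for more at the longer ones, of up to 2343 bases. The sum of 13 was 4.57-fold higher than the floor of 3 reads over the aged FO B libraries, without its own counting error. With no filter the difference did not pass the test (limma FDR = 0.279, exact two-sided permutation p = 0.4).

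Ccl3 and Ccl4 encode related CC chemokines and lie 13228 bases apart on chromosome 11, Ccl3 from 83647844 to 83649355 on the minus strand and Ccl4 from 83662584 to 83664683 on the plus strand. Ccl4 was at 0.252, 0.765 and 1.27 FPKM in young FO B cells, 0.275, 1.36 and 1.51 FPKM in aged FO B cells and 1.64, 4.94 and 2.17 FPKM in ABCs. Its 3 ABC libraries were above the 6 FO B libraries by a small margin, and library 2 stood highest. ABC library 1 and aged FO B libraries 2 and 3 had 6 reads each, so that only the correction for depth separated them. The log2 difference of 0.91 had a 95% interval from 0.02 to 1.79 and was not called (limma FDR = 0.1), with 34 reads in ABCs and 13 in aged FO B cells. Ccl3 was at 0, 0.197 and 0.196 FPKM in young FO B cells, 0.213, 0.526 and 0.195 FPKM in aged FO B cells and 0.634, 2.3 and 0.21 FPKM in ABCs. The groups overlapped for Ccl3, and 12 of its 16 reads in ABCs came from library 2. Its depth-corrected ratio of reads between ABCs and aged FO B cells was 3.37 with a 95% counting interval from 1.18 to 11.8, whereas with no filter the difference over libraries had an FDR of 0.395 (limma).

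**Figure D3:**
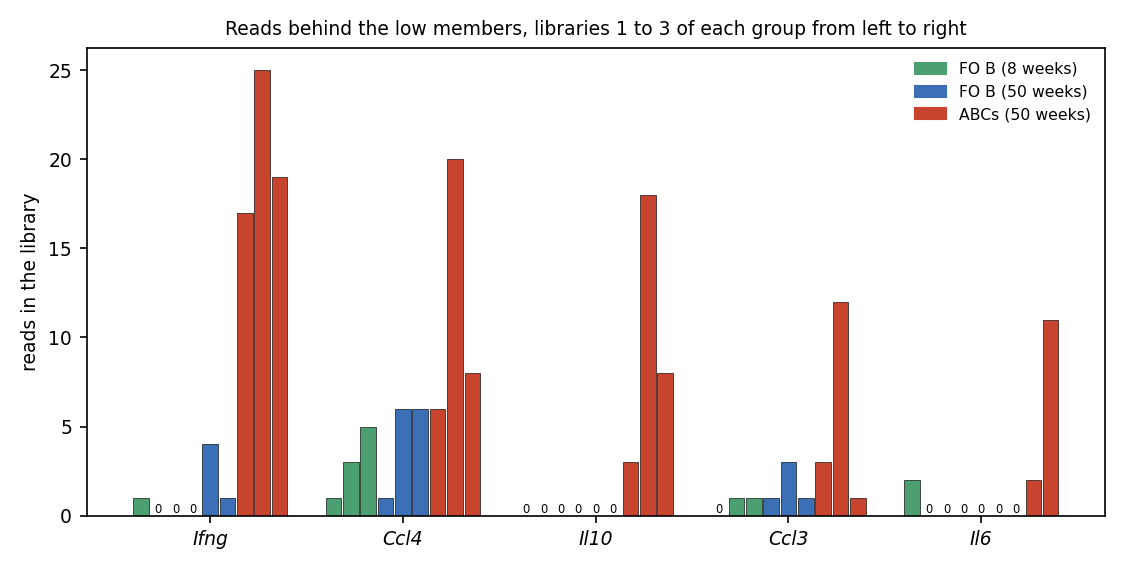
Number of reads on the 5 low members in each library, with 3 bars per group for libraries 1 to 3 from left to right and a 0 where a library had none. Ifng had 17 to 25 reads in each ABC library, whereas Il6 had 11 of its 13 ABC reads in library 3 and Ccl3 had 12 of 16 in library 2. Reads of Il6 are counted at its shortest annotated transcript.

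Among the ABC libraries, library 2 was the highest for Ifng, Ccl4, Ccl3 and Il10, and library 3 for Lta and Il6. Cd3g, which encodes a chain of the T cell receptor complex and is named because of its values, was at 9.63, 37.0 and 4.93 FPKM in ABC libraries 1 to 3 and at 0 in the aged FO B libraries. The summed level of 13 T cell markers was 916 to 1030 FPKM in ABCs and 355 to 401 FPKM in aged FO B cells, most of it Cd2, which B cells also express. All 3 tested genes of that list, Cd3g, Cd2 and Cd5, were higher in ABCs (limma). Cd3g and Cd5 passed the filter only through the ABCs, and the call of Cd5 was lost under quantile normalization (limma FDR = 0.166). The other 10 stayed under the filter. Among them were Cd3e at 0.0996, 0 and 0 FPKM in ABCs, Cd4 at 0, 0 and 0.0419 FPKM, Cd8a at 0.0421, 0 and 0 FPKM and Thy1 at 0 in all 3. For 11 NK cell markers the sum was 29.6 to 38.2 FPKM in ABCs and 0.83 to 1.71 FPKM in aged FO B cells, most of it Prf1 at 25.5, 24.1 and 38.0 FPKM, while Ncr1 was at 0, 0.0882 and 0 FPKM and Gzmb and Klre1 were at 0. In ABCs 3 of the 11 NK cell markers averaged at least 1 FPKM, against 0 in aged FO B cells. Besides Prf1 these were Klrd1, at 2.99, 3.21 and 0 FPKM in ABCs against 0.188, 0.155 and 0.517 FPKM, and Nkg7, at 2.03, 1.84 and 0.202 FPKM against 0, 0.169 and 0.187 FPKM. For 15 macrophage and monocyte markers the sum was 277 to 324 FPKM in ABCs and 23.0 to 30.7 FPKM in aged FO B cells, most of it Adgre1 at 174 to 222 FPKM, while Csf1r was at 0.301 to 0.831 FPKM in ABCs and 0.245 to 0.603 FPKM in aged FO B cells. Of 6 tested genes of that list, 3 were higher in ABCs and none lower, Adgre1, Ly6c2 (log2 difference 2.58, limma FDR = 1.91e-05) and Cd68 (log2 difference 1.13, limma FDR = 0.0155). Plasma cell markers summed to 976 to 1275 FPKM in ABCs against 444 to 471 FPKM in aged FO B cells, most of it Mzb1. Of these, 4 of 6 tested genes were higher, Jchain, Prdm1, Sdc1 and Mzb1, as were 19.4% of all tested genes. Prdm1 passed the filter only through the ABCs. Dendritic cell markers summed to 39.7 to 47.0 FPKM against 34.4 to 55.1 FPKM, and the 3 of 5 tested genes that were higher, Batf3, Itgae and Zbtb46, passed the filter only through the ABCs. The part of other cells in the low members was not tested.

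With age in FO B cells, 5 members were tested, Ltb, Lta, Tnf, Ebi3 and Tgfb1, and none was called by limma, whereas 1 had an unadjusted p under 0.05. Of all 10122 genes tested, 0.464% were called, and 1298 had an unadjusted p under 0.05 (limma). The log2 differences between aged and young mice were -0.33 for Tnf, -0.20 for Ebi3, -0.17 for Lta, -0.09 for Ltb and -0.09 for Tgfb1. The median of all tested genes was 0.00, and -0.12 after scaling to the upper quartile, in which calls split into 24 higher and 27 lower against 35 and 12. Tnf had the unadjusted p of 0.0212 and an FDR of 0.278 (limma), with a 95% interval from -0.60 to -0.06. Its 3 libraries of aged mice, at 11.1 to 12.6 FPKM, were below the 3 of young mice, at 13 to 17.7 FPKM (exact two-sided permutation p = 0.1, the smallest possible). Such a separation downward was found for 8.96% of the tested genes.

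Every ABC library was below every aged FO B library for 4 of the 7 tested members, and for 26.3% of all tested genes. Every ABC library was above every aged FO B library for 2 members, and again for 26.3% of all tested genes. The 4 lower ones were Ltb, Lta, Tnf and Tgfb1, and the 2 higher ones Ifng and Ccl4. For Ccl4, ABC library 1 and aged FO B libraries 2 and 3 had 6 reads each and were separated only by the correction for depth. Ifng passed the filter only through the ABCs and had to differ if it was tested. The 2 comparisons share the aged FO B libraries, so their differences are not independent.

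**Figure D4:**
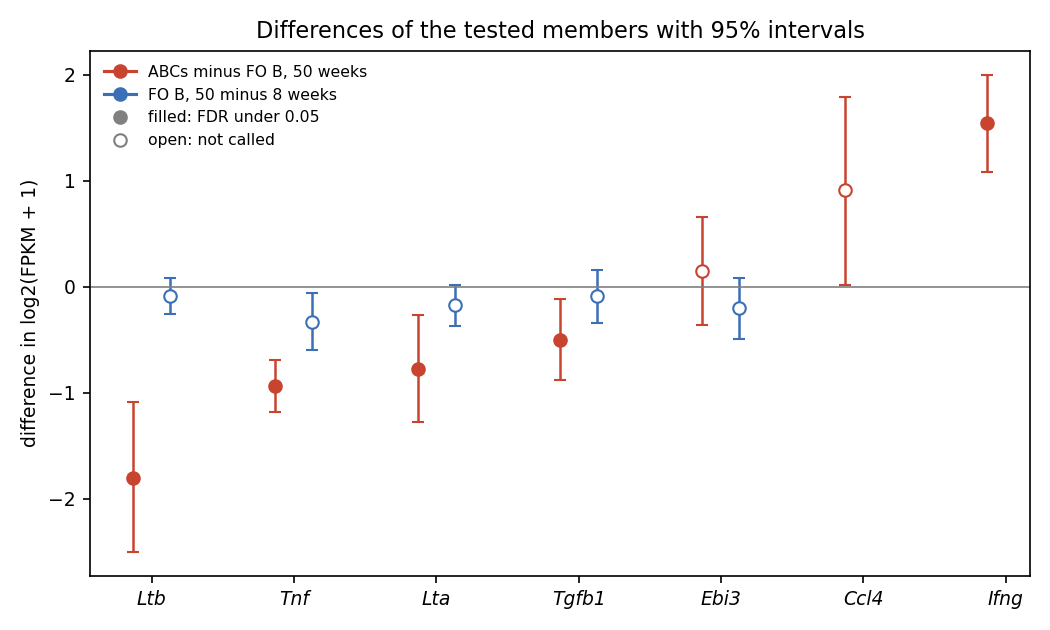
Differences in log2(FPKM + 1) of the 7 tested members with 95% intervals from limma, for ABCs minus FO B cells at 50 weeks (red) and, for the 5 members tested there, FO B cells at 50 minus 8 weeks (blue). Filled points passed an FDR of 0.05. The red intervals of Ltb, Tnf, Lta and Tgfb1 lie below 0 and that of Ifng above 0, and no blue point is filled.

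The order of the members by mean FPKM was similar at the top in all groups. From the highest down it was Ltb, Lta, Ebi3, Tnf and Tgfb1 in FO B cells of both ages and in ABCs. Ltb and Lta were separated from each other and from Ebi3 in every group, at 870 ± 85.2, 73.1 ± 8.77 and 15.0 ± 2.38 FPKM (SD, n = 3) in aged FO B cells and 267 ± 113, 43.6 ± 14.8 and 17.1 ± 4.78 FPKM (SD, n = 3) in ABCs. Ebi3 and Tnf overlapped in FO B cells but not in ABCs, where Tnf was at 5.77 ± 0.507 FPKM (SD, n = 3). From Tnf downward, neighbours in the order overlapped in ABCs, with Tgfb1 at 5.28, Ccl4 at 2.92, Ifng at 2.39, Il6 at 1.18, Ccl3 at 1.05 and Il10 at 1.01 FPKM on average.

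The same families hold other secreted or surface ligands. Of 15 further TNF superfamily ligands, 5 were tested, 3 of them higher in ABCs than in aged FO B cells and none lower (limma). Tnfsf13b, which encodes the B cell survival factor BAFF, was at 12.9, 10.2 and 13 FPKM in ABCs and at 0, 0 and 0.0756 FPKM in aged FO B cells (log2 difference 3.66, FDR = 1.2e-05). Tnfsf4, which encodes the T cell costimulator OX40L, was at 6.19, 5.60 and 2.86 FPKM in ABCs and at 0.088, 0 and 0 FPKM in aged FO B cells (log2 difference 2.47, FDR = 0.000481). Cd70, which encodes the ligand of CD27, was at 2.33, 0.351 and 3.46 FPKM in ABCs and listed at 0 in aged FO B cells, with an FDR of 0.0329 that became 0.0697 under quantile normalization. These 3 passed the filter only through the ABCs.

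Of 33 further chemokines, 28 were under the filter, 3 were higher in ABCs and 2 were not called. Cxcl10, an interferon-induced chemokine for CXCR3-bearing cells, was at 38.6, 34.6 and 102 FPKM in ABCs against 0.693, 0.342 and 0.634 FPKM in aged FO B cells (log2 difference 5.08, limma FDR = 0.000143). Ccl19, a chemokine for CCR7-bearing cells, was at 13.7, 7.40 and 27.0 FPKM and Ccl5 at 1.92, 4.52 and 5.34 FPKM in ABCs, and both were listed at 0 in aged FO B cells (limma FDR = 0.000425 and 0.00141). All 3 passed the filter through the ABCs only, and all 3 stood above Ccl3 in the mean of ABCs.

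Of 31 further interleukins, 6 were tested, 2 of them higher in ABCs, 2 lower and 2 not called. Il4, a cytokine of type 2 immunity, was at 2.50, 2.26 and 5.27 FPKM in ABCs and listed at 0 in aged FO B cells (limma FDR = 0.00131), and Il15, a survival factor of NK and memory T cells, was at 2.87, 1.56 and 2.39 FPKM against 0.229, 0.476 and 0.741 FPKM (limma FDR = 0.00739). Both passed the filter only through the ABCs and had to differ if they were tested. Il12a and Il16 fell, the latter from 135 to 144 FPKM in aged FO B cells to 83.2 to 104 FPKM in ABCs (limma FDR = 0.00477, and 0.154 after scaling to the upper quartile). Of 14 further interferons, colony-stimulating factors and other cytokines, 3 were tested and only Csf1, a growth factor of macrophages, was called, at 5.08, 5.21 and 2.74 FPKM in ABCs against 1.48, 1.28 and 1.28 FPKM in aged FO B cells (limma FDR = 0.00633). Between aged and young FO B cells, none of the tested genes of these 4 lists was called by limma.

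**Figure D5:**
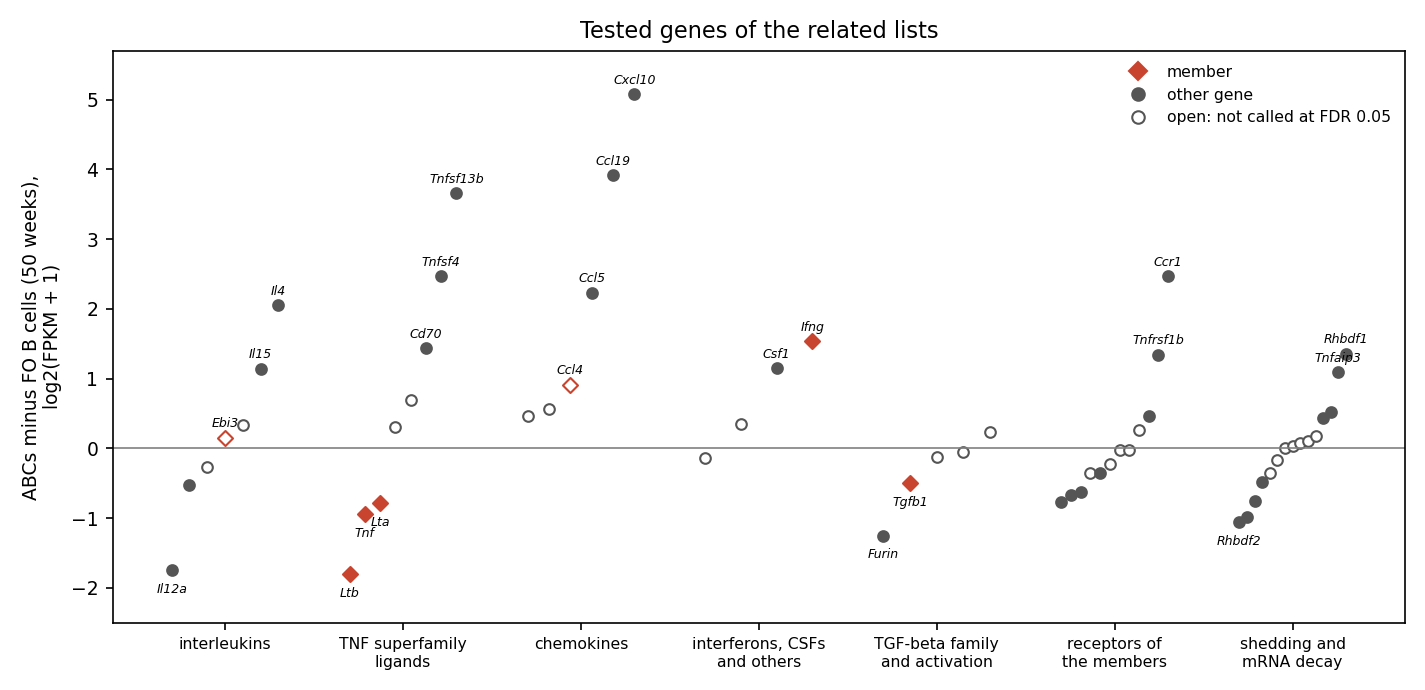
Differences in log2(FPKM + 1) between ABCs and aged FO B cells for each tested gene of 7 lists related to the members. Diamonds are members, circles other genes, and open symbols did not pass an FDR of 0.05. The 3 called TNF superfamily ligands below 0 are the members Ltb, Tnf and Lta, and the 3 called chemokines, Cxcl10, Ccl19 and Ccl5, are above 0.

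Some receptors of the members were expressed in the same cells. Ltbr, which encodes the lymphotoxin beta receptor, had 0 reads in both FO B groups and 4 in ABCs. The TNF receptor gene Tnfrsf1a had 1 read in young FO B cells, 0 in aged FO B cells and 38 in ABCs. Of 17 receptor genes, 5 stayed under the filter and 12 were tested. Of these 12, 3 were higher in ABCs than in aged FO B cells, 4 lower and 5 not called, with a median log2 difference of -0.12. Ccr1, a receptor of CCL3, was at 21.9, 13.5 and 13.7 FPKM in ABCs against 1.97, 2.54 and 1.72 FPKM (log2 difference 2.47, limma FDR = 0.000211). Tnfrsf1b, a receptor of TNF and lymphotoxin alpha, was at 24.8, 23.4 and 33.4 FPKM against 10.5, 8.87 and 10.7 FPKM (log2 difference 1.34, limma FDR = 0.000641). The chains of the IL-6 receptor fell, Il6ra by 0.77 and Il6st by 0.67 on the log2 scale (limma FDR = 0.0372 and 0.0123), Il6st having passed the filter only through the FO B cells, and the call of Il6ra was lost after scaling to the upper quartile (FDR = 0.124). Il27ra, the receptor chain for IL-27, fell by 0.62 (limma FDR = 0.00145, and 0.0506 after the same scaling).

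Genes that process TNF or control the decay of cytokine transcripts moved both ways, 4 higher, 4 lower and 7 not called among 15 tested, with a median log2 difference of 0.03. Among the decay genes, Zfp36l2, Zc3h12a and Zfp36l1 were called lower, at log2 differences of -0.99, -0.75 and -0.48, and Zc3h12d higher, at 0.52. Zfp36, Rc3h1, Rc3h2 and Elavl1 were not called. The call of Zfp36l2 was lost after scaling to the upper quartile (limma FDR = 0.0798). Adam17, the sheddase of TNF, was at 33.1 to 37.2 FPKM in ABCs and 33.2 to 34.2 FPKM in aged FO B cells and was not called (limma FDR = 0.444). Of its related cofactors, Rhbdf1 was 1.36 higher in log2 (limma FDR = 7.5e-05) and Rhbdf2 fell by 1.05 (limma FDR = 0.04, and 0.108 after scaling to the upper quartile). Tnfaip3, an inhibitor of NF-kappaB signalling, rose from 17.0 to 18.1 FPKM in aged FO B cells to 30.9 to 48.4 FPKM in ABCs (limma FDR = 0.00179). Of 13 further genes of the TGF-beta family and its activation, 4 were tested and 1 was called, Furin, the protease that cleaves the TGF-beta precursor, which fell from 2.1 to 5.02 FPKM in aged FO B cells to 0.702 to 1.08 FPKM in ABCs (limma FDR = 0.00841) and passed the filter only through the FO B cells.

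Markers used for regulatory B cells, the subset known for IL-10, were counted beside Il10. Of 17 such genes, 13 were tested, 9 of them higher in ABCs than in aged FO B cells, 2 lower and 2 not called, with a median log2 difference of 1.07. Of the 9, Cd5, Prdm1 and Nfil3 passed the filter only through the ABCs. Havcr1, which encodes TIM-1, was at 28.9, 30.6 and 49.7 FPKM in ABCs against 2.15, 1.40 and 0.882 FPKM (limma FDR = 7.8e-05). Cd9 was at 73.7 to 83.9 FPKM in ABCs against 7.03 to 10.1 FPKM (limma FDR = 1.7e-05). Cd24a and Cd1d1, which mark the same cells, were lower in ABCs, Cd24a at 95.5, 101 and 28.6 FPKM against 338, 392 and 361 FPKM (limma FDR = 0.0049) and Cd1d1 by 0.76 on the log2 scale (limma FDR = 0.0329, and 0.147 after scaling to the upper quartile). The genes of this list were chosen with their values in these libraries known and are a description.

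Immediate-early genes, which cells induce within minutes of stimulation or handling, were higher in ABCs in 10 of 19 tested genes and lower in 3, with a summed level of 2646, 3463 and 3749 FPKM in ABC libraries 1 to 3 and 1952 to 2203 FPKM in aged FO B cells. Fos was at 444, 722 and 810 FPKM in ABCs against 97.7, 184 and 180 FPKM (limma FDR = 0.002). The members did not follow this sum in 1 way. Library 3, with the highest sum, had the most Il6, Lta and Tnf of the ABCs but the least Ltb, Ebi3, Tgfb1 and Ccl3. Library 1, with the lowest sum, had the least Il10, Ccl4, Ifng and Lta and no Il6, but the most Ltb and Ebi3. Library 2 had the most Il10, Ccl3, Ccl4, Ifng and Tgfb1. Between aged and young FO B cells, 2 of 18 tested genes of this list were higher, Junb (limma FDR = 0.0118) and Ier2 (limma FDR = 0.0494, but 0.0504 under quantile normalization and 0.193 after scaling to the upper quartile). The part of handling in the members' levels was not tested.

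The genes with the pattern most like a member over the 9 libraries were named by Pearson's r of log2(FPKM + 1) among 10375 genes, as a description in which the points share their libraries and the group difference. For Ltb these were Slc2a3 (r = 0.996), Itpr3 (0.995) and Ppp1r18 (0.994), for Tnf Rexo1 (0.992), Zfp28 (0.980) and Ublcp1 (0.979), and for Lta Nedd9 (0.981), Pik3cg (0.970) and Traf3 (0.968). For Tgfb1 they were Dtd1 (0.985), Gnal (0.978) and Foxp1 (0.977), for Ebi3 Trappc10 (0.938), Cdh17 (0.916) and Siah1b (0.915), and for Ccl4 Stk19 (0.948), Abcc5 (0.935) and Tchp (0.929). The 3 clustered members shared none of these genes. Ifng averaged under 1 FPKM over the 9 libraries and was left out.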

How the data were processed

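The authors amplified full-length cDNA (SMART-Seq HT), prepared libraries (Nextera XT per the labels, Nextera per the methods), mapped single-end reads to mm10 and deposited FPKM for every gene symbol of each library. The submitters' processing notes name TopHat2 2.1.1, Bowtie2 2.2.8, SAMtools 0.1.18 and Cuffdiff 2.2.1, whereas the methods name other versions of the mapping tools and Cufflinks. The gene annotation is not given in the sources used here.

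For each comparison, limma 3.58.1 (lmFit, then eBayes with a trend, under R 4.3.3) was applied to log2(FPKM + 1) of the 6 libraries, without a block and for genes averaging 1 FPKM or more, with Benjamini-Hochberg FDR over all genes tested. Log2 differences understate the change of low genes. The fit was tested on simulated data. Mean FPKM was also compared by exact two-sided permutation over 20 orders. Reads were recovered from FPKM steps for 13606 of 17513 genes within 0.03 of a whole number and were used for floors and counting intervals only. Total reads were approximated with 1844 genes. Ltb and Tgfb1 reads did not match an annotated length and are not given. Positions are from GENCODE M21 on GRCm38, and sequences from RefSeq GRCm38.p6.

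A further sort marker is not reported here. The members and the 19 gene lists were chosen with earlier results of these data known. All members are named. From the other lists up to 4 called genes without overlap and with the largest differences were eligible. Others are named where a member has a direct partner, where a marker bears on a level or to give the genes of transcript decay. The alternatives comprised pseudocounts of 0.1 and 0.01, a filter of 5 FPKM or none, quantile, TPM and upper quartile scaling, no trend, all 9 libraries, a replicate block, stricter thresholds and leaving out each library.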

Additional observations from a re-analysis of the deposited data

How the results depend on the processing

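In ABCs against aged FO B cells, 5 members were called, among them Ifng, which had to differ if it was tested. The number was 3 with a filter of 5 FPKM or at an FDR under 0.01, 0 with an absolute log2 difference above 2.3 as well, 4 with no filter or after scaling to the upper quartile, and between 3 and 4 when each library was left out in turn, the losses being the calls of Lta or Tgfb1 and, without ABC library 2, the test of Ifng. With no filter, Lta and Tgfb1 were no longer called and Il10 was added. Among all genes, 3739 of 10412 were called in the main fit, 3488 of 18877 with no filter and 2975 of 8057 with a filter of 5 FPKM. After scaling to the upper quartile 3050 of 10412 were called, and 2550 to 3643 genes when each library was left out. The causes were not tested, other than that leaving out a library or filtering at 5 FPKM leaves fewer libraries or genes. Tnf and Ltb had an FDR under 0.05 in every alternative fit, and no tested member changed direction. Between aged and young FO B cells the number stayed at 0 under every alternative.

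Deviations of same-numbered libraries had correlations of 0.08, -0.02 and 0.11 between ABCs and aged FO B cells and -0.05, 0.14 and -0.10 between the FO B groups. ABC libraries 1 and 3 correlated best with the aged FO B library of the same number, and ABC library 2 with FO B library 1. Values this small from 3 libraries per group cannot decide whether libraries are paired. The labels do not say whether such libraries share an animal, and they were not treated as pairs. With the replicate block, 6 members were called in ABCs against aged FO B cells, Ccl4 being added (FDR = 0.0417, from 0.0417 to 0.269 over its alternatives), and 0 between the FO B groups. Among all genes the block gave 3448 calls of 10412 and 37 of 10122 in these comparisons. Depth limits Il10, Il6, Ccl3, Ccl4 and Ifng, each with at most 25 reads in a library when Il6 is counted at its shortest annotated transcript.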
